A study of Mus musculus with 14 samples.

Results

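Exon and intron levels of the SR splicing factor genes were examined in lactating mammary tissue. The 10 genes *Srsf1*, *Srsf2*, *Srsf3*, *Srsf4*, *Srsf5*, *Srsf6*, *Srsf7*, *Srsf9*, *Srsf10* and *Srsf11* were taken by symbol from the 20550 genes that the deposited files list, and all 10 were found in both files. The study asked how far the super-enhancer of the milk protein gene *Wap* activates the neighboring gene *Tbrg4*, with or without the *Wap* promoter. Total RNA-seq was available for mammary glands of 2 wt/Wap-Tbrg4 mice on day 10 of lactation (L10), which are replicates 1 and 2. Both mice carried a wt allele and an allele in which a deletion made by CRISPR-Cas9 joins the *Wap* super-enhancer and promoter, which are active in mammary tissue, to *Tbrg4*. The line was made in C57BL/6 eggs, and the age of the sampled animals is not given in the sources used here. No other genotype had RNA-seq files among those analysed, so the 2 mice form a single group and the values below are levels, without a test between groups. Each gene has an exon FPKM, calculated over the merged exons of all its transcripts, and an intron FPKM, calculated over the sequence between them. Intron reads can come from RNA that still holds introns, from exons that a gene model leaves out or from other genes in the same span. Unspliced precursor RNA, mature RNA with a retained intron and the other sources cannot be told apart in these values. Nor can the introns of a gene, so retention itself was not measured.

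The tissue carried the markers of secretory epithelium, with all 7 of the genes examined above an exon FPKM of 1. Together they reached 290439 exon FPKM in the first mouse and 725365 in the other, and *Csn2*, which encodes beta-casein, was the most abundant of them on average, with 108555 and 481937. The higher sum in replicate 2 came mainly from *Csn2* and *Wap*, which had 172935 and 234774. *Elf5* was also higher in replicate 2, whereas *Lalba*, *Krt8*, *Krt18* and *Epcam* were lower. Adipocyte markers summed to 594.8 and 679.6, led by *Fabp4*, and endothelial markers to 32.1 and 30.5. Leukocyte markers summed to 5.60 and 5.10, and myoepithelial markers to 24.5 and 8.90, of which *Acta2* was listed at 0 in both mice. The SR values therefore come from a whole gland, in which fewer cells of a type and less RNA per cell cannot be told apart.

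SR proteins bind RNA through an RNA recognition motif and contact other splicing factors through a domain rich in arginine and serine. They bind exonic enhancers, promote the choice of nearby splice sites, and several of them also act in export and translation of mRNA. Their own transcripts are a textbook case of feedback: many SR genes hold a highly conserved exon with a premature stop codon, often called a poison exon, or an intron that is kept under some conditions. Inclusion of such an exon sends the transcript to nonsense-mediated decay, and transcripts with a kept intron often stay in the nucleus.

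The reference annotation shows this layout in the members. GENCODE M21 lists at least 1 nonsense-mediated decay transcript for 9 of the 10 genes, all except *Srsf10*, compared with 29.8% of the 9823 genes in GENCODE that averaged 1 exon FPKM or more. In 5 of the genes, such a transcript holds an internal exon that ends the reading frame and overlaps no coding sequence of protein-coding transcripts. *Srsf2* also has internal exons without such overlap, but no end of the frame was located in them. The share of all genes with an exon of this kind was not determined. The exons of the 5 genes are shown from their first base to the stop codon, which is in capitals. They are shown because such exons are a known means of SR genes to limit their own mRNA, although the function of each was not tested here. The positions are on GRCm38 (mm10), at chr17:29039454-29039487 on the plus strand for *Srsf3*, chr4:131884276-131884390 on the plus strand for *Srsf4*, chr17:80205054-80205081 on the minus strand for *Srsf7*, chr5:115328347-115328428 on the plus strand for *Srsf9* and chr3:158024209-158024231 on the minus strand for *Srsf11*.
Srsf3: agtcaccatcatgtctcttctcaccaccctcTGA
Srsf4: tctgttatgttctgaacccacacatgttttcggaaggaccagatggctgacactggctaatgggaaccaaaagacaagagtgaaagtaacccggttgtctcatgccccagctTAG
Srsf7: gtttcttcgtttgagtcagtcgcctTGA
Srsf9: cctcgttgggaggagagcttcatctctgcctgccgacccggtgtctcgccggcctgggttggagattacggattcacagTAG
Srsf11: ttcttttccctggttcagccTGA

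The frame ended after 34 bases of a 456-base exon in *Srsf3*, after 28 bases of a 460-base exon in *Srsf7* and after 23 bases of a 109-base exon in *Srsf11*, the stop codon included. In *Srsf4* it ended after 115 of 207 bases and in *Srsf9* after 82 of 358 bases. RefSeq also draws the exons of *Srsf3*, *Srsf4*, *Srsf7* and *Srsf11*, but not that of *Srsf9*, so with RefSeq models reads on the *Srsf9* exon would count as intron reads. The same holds for a 104-base exon of a decay transcript of *Srsf2* (chr11:116851648-116851751, minus strand), which lies inside the last RefSeq intron of that gene. The authors counted on UCSC known genes, and which of these exons their models held was not tested.

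All 10 SR genes were detected in exons and in introns in both mice, and they fell into a higher and a lower set by exon level. *Srsf5*, *Srsf2*, *Srsf6* and *Srsf1* had exon FPKM between 24.0 and 59.2, and the other 6 genes had between 3.1 and 13.6. In introns, *Srsf2* and *Srsf5* stood apart from the rest, with at least 24.5 FPKM in each mouse, whereas no other member exceeded 4.6. The 10 genes had median intron FPKM of 2.25 and 3.25 in replicates 1 and 2, compared with 0.40 in each mouse across the 9833 genes that have an annotated intron and average 1 exon FPKM or more. Their median exon FPKM, 9.55 and 11.4, lay closer to the 6.0 and 5.3 of all these genes.

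*Srsf1* (chr11:88047373-88053757), the prototype of the family, and *Srsf9* (chr5:115327177-115333080) both lie on the plus strand. *Srsf1* had exon levels of 24.0 and 30.2 FPKM in replicates 1 and 2 (27.1 ± 4.38, SD, n = 2). *Srsf9*, which is closest to *Srsf1* in domain structure, had 9.8 and 8.1. The intron FPKM was 2.9 and 4.3 for *Srsf1* and 0.8 and 0.5 for *Srsf9*, the lowest among the members. The pair thus differed in both measures in each mouse, with *Srsf1* above *Srsf9*.

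*Srsf2* (SC35; chr11:116849897-116853094, minus strand), a marker of nuclear speckles that is known to limit its own mRNA through splicing of its last exon region, had an exon FPKM of 29.7 and 39.2. Its intron FPKM was 24.5 and 29.7 (27.1 ± 3.68, SD, n = 2). Its mean intron FPKM ranked 22 among the 9833 genes, whereas its mean exon FPKM ranked 794.

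*Srsf3*, the smallest SR protein, and *Srsf7*, which has a zinc knuckle beside its RNA recognition motif, both serve as adaptors for mRNA export. *Srsf3* had an exon FPKM of 5.5 and 8.8 and an intron FPKM of 2.0 and 3.2. *Srsf7* had an exon FPKM of 6.7 and 9.1 and an intron FPKM of 1.4 and 2.2. *Srsf3* lies at chr17:29032660-29043372 on the plus strand and *Srsf7* at chr17:80200080-80207305 on the minus strand. Within each mouse *Srsf7* was above *Srsf3* in exons and below it in introns, while their ranges over the mice overlapped in both.

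*Srsf4* (chr4:131873637-131901725), *Srsf5* (chr12:80945499-80950506) and *Srsf6* (chr2:162931508-162937121), all on the plus strand, each encode a further, divergent RNA recognition motif. *Srsf5* had the highest exon FPKM of the members in each mouse, 59.2 and 41.7, and an intron FPKM of 25.7 and 27. *Srsf6* had 27.4 and 38.4 in exons and 4.6 and 3.3 in introns. *Srsf4* had 5.8 and 3.1 in exons and 1.5 in the introns of each mouse. These 3 genes share a domain structure but spanned most of the range of the family in both measures.

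*Srsf10*, a splicing regulator that turns into a repressor when it is dephosphorylated, had an exon FPKM of 3.5 and 6.2 and an intron FPKM of 2.5 and 3.9. *Srsf11*, a more divergent SR protein that interacts with the splicing factor U2AF, had 9.3 and 13.6 in exons and 1.0 and 1.4 in introns. *Srsf10* lies at chr4:135856071-135869908 on the plus strand and *Srsf11* at chr3:158010919-158036606 on the minus strand. *Srsf12*, another gene of the family that is not among the 10, was near the detection limit with exon FPKM of 0.0 and 0.1. Ordered by mean exon FPKM as deposited, the members ran *Srsf5*, *Srsf2*, *Srsf6*, *Srsf1*, *Srsf11*, *Srsf9*, *Srsf7*, *Srsf3*, *Srsf10* and *Srsf4*. Within each mouse, *Srsf5*, *Srsf2*, *Srsf6*, *Srsf1* and *Srsf11* kept this order, as did *Srsf7*, *Srsf3* and *Srsf10*, whereas *Srsf9* lay above *Srsf11* in replicate 1 and below *Srsf7* in replicate 2, and *Srsf4* lay above *Srsf10* in replicate 1 only. Across the mice, the values of neighbors in this order overlapped, except those of *Srsf5* and *Srsf2*, with 41.7 against 39.2 at their closest, and those of *Srsf1* and *Srsf11*, with 24.0 against 13.6.

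**Figure D1:**
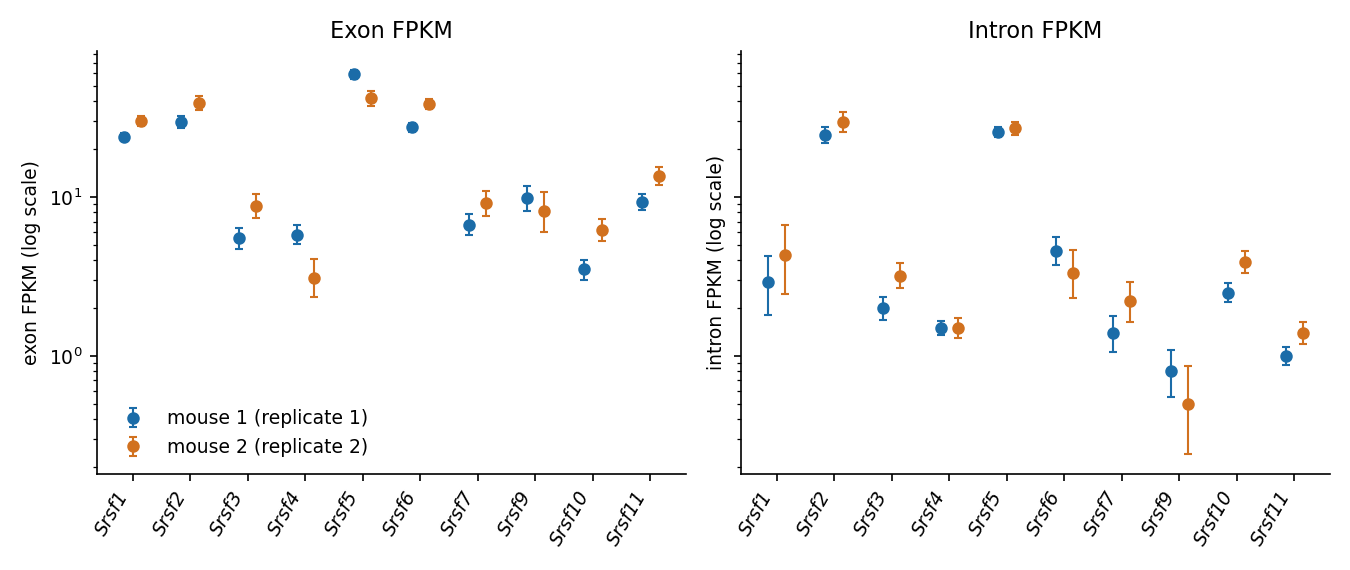
Exon FPKM (left) and intron FPKM (right) of the 10 SR genes in each mouse on a log axis, with 95% Poisson intervals of the estimated reads as bars. *Srsf2* and *Srsf5* have intron FPKM of 24.5 to 29.7, and no other gene exceeds 4.6.

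The precision of these values can be estimated, since FPKM of genes with short exons or introns fall on steps that correspond to single reads. With RefSeq lengths, the step was 0.102 FPKM × kb per read in replicate 1 and 0.203 in replicate 2. Of the low values, 44 of 63 and 64 of 75 lay within 0.15 of a whole number of reads. The step was fitted to these same values, so this share is no independent check of it, and the estimated reads are approximate. The totals then come to about 11.8 M exon reads and 2.59 M intron reads in replicate 1, and 11.0 M and 1.27 M in replicate 2 (M, mega). *Srsf5* rested on an estimated 963 exon and 844 intron reads in replicate 1, and on 341 and 446 in replicate 2. At the other end, *Srsf9* had about 36 and 11 intron reads, and *Srsf1*, whose introns sum to only 825 bp, had about 23 and 17. The 95% Poisson interval of the intron FPKM of *Srsf1* was therefore wide, from 1.80 to 4.27 in replicate 1 and from 2.43 to 6.69 in replicate 2. These intervals cover counting error only, and they hold as far as the annotated lengths match those used by the authors.

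Relative to their exon level, most of the SR genes had more intron signal than other genes. The ratio of intron to exon FPKM had a median of 0.234 in replicate 1 and 0.303 in replicate 2 over the 10 members, compared with 0.0601 and 0.0656 over the 9833 genes. It was above 0.1 in both mice in 8 of the 10 members, all except *Srsf6* and *Srsf9*, and in 20.2% of these genes. *Srsf2* had the highest ratio in each mouse, 0.825 and 0.758 in replicates 1 and 2. *Srsf10* had 0.714 and 0.629 and was next in replicate 1, while *Srsf5*, with 0.434 and 0.647, was next in replicate 2. Of the others, *Srsf4* had 0.259 and 0.484, and *Srsf3* had 0.364 in each mouse. In these 5 genes the intron signal per kb thus came nearest to the exon signal. *Srsf7* had a ratio of 0.209 and 0.242, *Srsf1* of 0.121 and 0.142, and *Srsf6* of 0.168 and 0.0859. *Srsf11* had 0.108 and 0.103, and *Srsf9* had the lowest ratio with 0.0816 and 0.0617.

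Since the ratio falls with the exon level across genes, each member was set beside the genes within 2-fold of its own exon FPKM in the same mouse. The percentile is the share of these neighbors with a lower ratio, and genes at or above the 90th percentile in both mice were counted. Of the 8 members averaging 5 exon FPKM or more, 6 were counted by this rule, namely *Srsf1*, *Srsf2*, *Srsf3*, *Srsf5*, *Srsf6* and *Srsf7*. The same rule took 368 of 5423 genes, or 6.79%. *Srsf2* lay at the 99.9th and 99.8th percentile among 1756 and 1245 neighbors, and *Srsf5* at 99.8 and 99.7 among 807 and 1147. By mean ratio *Srsf2* ranked 10 and *Srsf5* ranked 19 among the 5423 genes. Among the others, *Srsf3* lay at the percentiles 98.9 and 99.0, *Srsf7* at 96.2 and 97.4, *Srsf6* at 97.6 and 93.0 and *Srsf1* at 93.8 and 96.9. *Srsf11* stayed below the threshold in both mice, with 84.0 and 86.9, and passed only a threshold at the 75th percentile, which took 7 of the 8 members and 17.5% of genes. *Srsf9* lay near the middle of its neighbors in replicate 2, at 52.3, after 73.1 in replicate 1.

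*Srsf4* and *Srsf10* had mean exon FPKM of 4.45 ± 1.91 and 4.85 ± 1.91 (SD, n = 2) and fell just under this minimum. With a minimum of 1 they lay at the percentiles 97.2 and 98.6 (*Srsf4*) and 99.5 and 99.6 (*Srsf10*). With that minimum, 8 of the 10 members were counted, compared with 6.25% of 9833 genes. *Srsf6* lost its place with other neighbors. When these also had to lie within 2-fold in summed intron length, its percentiles were 95.3 and 86.4, so 5 of the 8 members were counted, compared with 6.62% of genes. Without genes marked as sharing their span with another gene, *Srsf2* itself was left out and its place could not be checked. Of the 7 other members, 5 were counted, compared with 6.41% of 3185 genes. This setting kept *Srsf1* and *Srsf11*, although GENCODE draws another gene over part of each, so it did not remove every overlap.

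**Figure D2:**
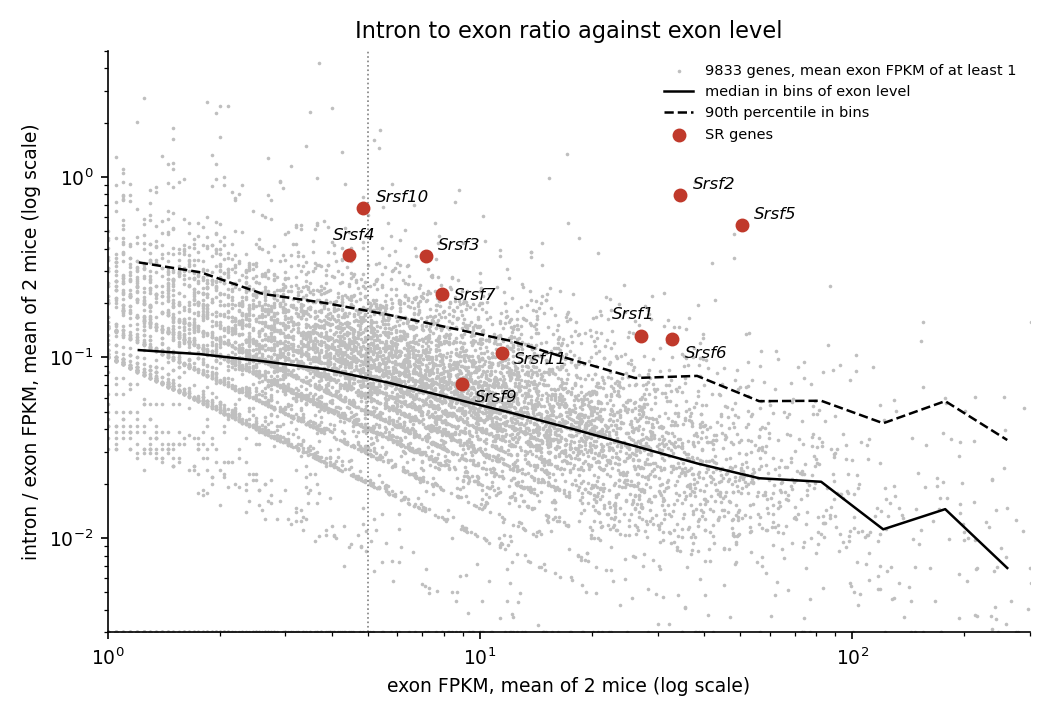
Ratio of intron to exon FPKM against exon FPKM, both as means of the 2 mice on log axes, for 9833 genes (gray) and the SR genes (red). Solid and dashed lines are the median and the 90th percentile in bins of exon level, and the dotted line marks an exon FPKM of 5. The plot leaves out 72 genes above an exon FPKM of 300 and 3 genes above a ratio of 5, and draws 349 genes with ratios under 0.003 at the lower edge. *Srsf2* and *Srsf5* lie highest above the dashed line, and *Srsf9* and *Srsf11* lie below it.

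The ratio is per length, so a gene with long introns can hold many intron reads at a low ratio. Multiplied by the RefSeq lengths, the intron signal of *Srsf4* exceeded its exon signal 1.80-fold in replicate 1 and 3.36-fold in replicate 2. It was the only member above 1 in both mice. Over the 9833 genes the upper quartiles of this value were 0.898 and 0.985, and genes above 1 in both mice were not counted. *Srsf4* has 24555 bp of introns, the most of the members. For *Srsf1*, with the least intron sequence, introns made up only 1.76% and 2.07% of these reads, although its ratio per length was above that of most genes of its level. *Srsf2* also has only 1295 bp of introns, yet they held 36% and 34.0% of its reads. The median of the relative reads of the 10 members, 0.665 and 0.626, differed less from that of the 9833 genes, 0.384 and 0.445, than the ratio per length did.

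The members had little intron sequence, with a median of 4565 bp compared with 19851 bp over the 9833 genes. Their median number of introns was 6, compared with 9. *Srsf1* and *Srsf2* have only 2 introns each in the merged RefSeq models, whereas *Srsf11* has 16. GENCODE lists transcripts of the type retained intron for 8 of the 10 members, all except *Srsf9* and *Srsf10*, and for 61.7% of the 9823 genes. An exon of such a transcript spans a whole intron in 7 of the 10 members, compared with 27.7% of genes, and covers 14 of their 65 introns, or 21.5%, compared with 4.91% of 110456 introns. *Srsf5* has 4 of these introns and *Srsf3* has 3. Across all 5423 genes, those with such an intron had a median percentile of 56.8 and were above the 90th percentile in both mice in 9.58% of cases, compared with 46.6 and 5.63% in the others. The annotation and the measured ratio did not run in parallel for every member. *Srsf10*, which has no annotated decay or retained intron transcript, had ratios of 0.714 and 0.629 as deposited, and *Srsf11*, with 11 retained intron transcripts, was under the threshold. In the merged RefSeq model, only 4 of the 6 introns of *Srsf10* start with GT and end with AG. The others, of 3364 and 1307 bp, belong to its 8318 bp of intron sequence, and their part in the ratio was not tested.

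The intron signal of *Srsf2*, *Srsf5* and *Srsf6* can be set beside the longest intron that GENCODE draws as retained in each gene. GENCODE draws the second and last intron of *Srsf2* (chr11:116850962-116852020, minus strand, 1059 bp), the fifth of 7 introns of *Srsf5* (chr12:80947866-80949094, plus strand, 1229 bp) and the second of 5 introns of *Srsf6* (chr2:162932143-162933425, plus strand, 1283 bp) in this way. They make up most of the intron sequence of *Srsf2* and *Srsf6*, and GENCODE draws 81.8%, 69.7% and 62.1% of the intron sequence of the 3 genes as exon in some transcript. In *Srsf3* this share was 62.9%, in *Srsf4* only 2.91% and in *Srsf10* 14.0%. The splice sites of these introns of *Srsf2*, *Srsf5* and *Srsf6* are given here, since weak sites are a known feature of retained introns. Those of *Srsf3*, *Srsf4*, *Srsf7* and *Srsf11*, which also have an intron drawn as retained, are not shown. The 5′ sites hold 3 bases of the exon and 6 of the intron, and the 3′ sites 20 bases of the intron and 1 of the exon, with the conserved GT and AG in capitals.
Srsf2 5′ site: atgGTaatg
Srsf5 5′ site: cagGTttgt
Srsf6 5′ site: gcaGTgagt
Srsf2 3′ site: ctctttcttttcaaacctAGa
Srsf5 3′ site: cataattgtcttgtgttaAGg
Srsf6 3′ site: actcccttcatgtgataaAGg

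Compared with the consensus CAGGTAAGT, the 5′ sites of *Srsf2* and *Srsf6* matched at 5 of 9 bases and that of *Srsf5* at 7. In the introns drawn as retained in *Srsf3*, *Srsf4*, *Srsf7* and *Srsf11*, the matches ran from 5 in *Srsf7* to 8 in *Srsf3* and *Srsf4*. Over all 61 introns of the members that start with GT and end with AG, the mean was 6.46 ± 0.886 (SD over introns), compared with 6.41 ± 0.958 over 106445 introns of the 9833 genes. The family as a whole thus had about the same number of matches as other genes. The 14 introns drawn as retained had a mean of 6.43 and the other 47 of 6.47. Over all genes the means were 6.19 for 5281 introns drawn as retained and 6.42 for 101164 others, a wider gap in the same direction.

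Some SR genes have copies of their mRNA elsewhere in the genome, which bears on the exon value but hardly on the intron value. Of the 50-base words of the exons, only 52.1% occurred once in the genome in *Srsf5*, 58.6% in *Srsf10* and 69.0% in *Srsf3*. In the other 7 members the share was between 92.4% (*Srsf2*) and 100%, and in introns it was at least 93.0% in every member. Of the 9833 genes, 10.3% had a share under 90%. The words of *Srsf5* that recurred lay at chr4:129898955-129900402, which GENCODE annotates as the processed pseudogene *Gm12966*. Those of *Srsf10* lay mainly at chr13:19993070-19995636 (*Gm5446*) and chr12:113379425-113381444 (*Gm9134*), also processed pseudogenes. Those of *Srsf3* included chr11:98624368-98625527 (*Gm12355*) and chr3:116560639-116561498 (*Gm9761*). With words of 100 bases the shares rose to 78.6% in *Srsf5*, 79.9% in *Srsf10* and 83.1% in *Srsf3*.

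How reads with several places in the genome were counted is not given in the sources used here, and the exon values of these 3 genes are uncertain for that reason. The order of the members by exon FPKM used the deposited values and is uncertain in the same way. If every such read was lost, exon FPKM would hold only this share of its full value. Divided by the share for 50-base words, the exon values gave ratios of 0.226 and 0.338 for *Srsf5*, 0.418 and 0.368 for *Srsf10* and 0.251 in each mouse for *Srsf3*. With the same division made for every gene, *Srsf5* lay at the percentiles 99.7 and 99.1 and *Srsf3* at 98.4 and 98.5, and the same 6 of 8 members were counted, compared with 6.53% of genes. Among genes with a share of at least 90%, 4 of the 6 members left were counted, *Srsf1*, *Srsf2*, *Srsf6* and *Srsf7*, compared with 6.71% of 4840 genes. In the comparison without this restriction, genes with a share under 90% were counted more often than the others, in 10.6% against 6.32% of cases. The division and this restriction were chosen after seeing the data.

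**Figure D3:**
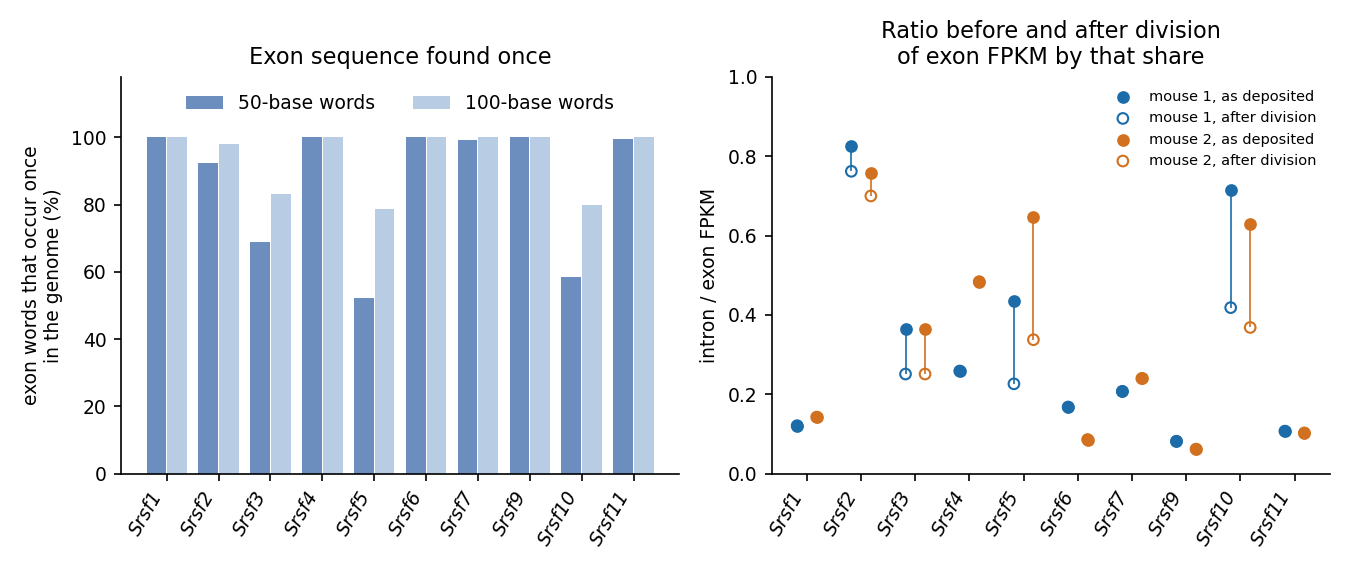
Left, share of the 50-base and 100-base words of the exons that occur once in the genome, for each SR gene. Right, ratio of intron to exon FPKM in each mouse as deposited (filled) and after division of the exon FPKM by the share for 50-base words (open). *Srsf5*, *Srsf10* and *Srsf3* have the lowest shares, 52.1%, 58.6% and 69.0%, and move most.

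Other genes overlap 4 of the members, mostly on the opposite strand. The share of all genes with such an overlap was not determined, so this count is not read as particular to the members. When genes marked as sharing their span were left out, 3185 of 5423 genes remained. GENCODE draws *Mettl23* across the whole of *Srsf2* and *Mfsd11* across 27.7% of its exon sequence, both on the opposite strand. *Mettl23* had an exon FPKM of 2.5 and 3.8 and an intron FPKM of 0.1 and 0.3. *Mfsd11* had an exon FPKM of 15.6 and 11.6 and an intron FPKM of 2.7 and 1.6. The introns of *Srsf2* had 24.5 and 29.7. The values of *Mettl23* and *Mfsd11* are averages over whole genes and do not give their signal within *Srsf2*, which was not tested. *Gm12992* covers 43.9% of the exon sequence of *Srsf4* and had an exon FPKM of 0.3 and 0.1. *Gm11508* covers 11.4% of the exon sequence of *Srsf1*, and unclassified transcripts on the same strand lie in introns of *Srsf4* and *Srsf11*. The library kit preserves strand, but whether the counting used it is not given in the sources used here. Without it, reads of these genes and of the members on the opposite strand cannot be told apart.

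The spread between the mice differed from member to member. Exon FPKM was higher in replicate 2 in 7 of 10 members, compared with 42.5% of the 9833 genes, and intron FPKM in 7 of 10, compared with 35.7%. In 6 genes, *Srsf1*, *Srsf2*, *Srsf3*, *Srsf7*, *Srsf10* and *Srsf11*, both were higher in replicate 2, compared with 19.5% of all genes. As log2 of FPKM + 1, the difference in exons was largest for *Srsf4*, with -0.73, and *Srsf10*, with 0.68. The median over the members was 0.39, compared with -0.08 over all genes. The 95% counting intervals of the mice did not overlap in exons for 8 of 10 members, compared with 38.3% of all genes, and in introns for 3 of 10, *Srsf3*, *Srsf10* and *Srsf11*, compared with 21.2%. These shares depend on how many reads a gene has, and genes with equal numbers of reads were not compared.

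The difference between the mice followed base composition across all genes, and the members followed it in part. *Srsf9* and *Srsf4*, with the highest GC content in exons, 55.8% and 55.0%, were lower in replicate 2, and *Srsf10*, with the lowest, 37.2%, had the largest positive difference. After a lowess correction for GC content the median over the members was 0.17, and *Srsf1* and *Srsf9* changed direction, to -0.04 and 0.18. After it, 5 of 10 members lay outside the quartiles of all genes (-0.23 and 0.23), the same share as all genes have by definition. These were *Srsf2* with 0.44, *Srsf11* with 0.42, *Srsf3* with 0.28, *Srsf4* with -0.36 and *Srsf5* with -0.67. The exons of *Srsf5* differed by -0.50 before the correction, while its introns differed by 0.07. The counting intervals of *Srsf5* did not overlap between the mice in exons and did in introns, but they leave out variation between animals. The ratio itself was higher in replicate 2 in 4 of 10 members, compared with 54.8% of genes.

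**Figure D4:**
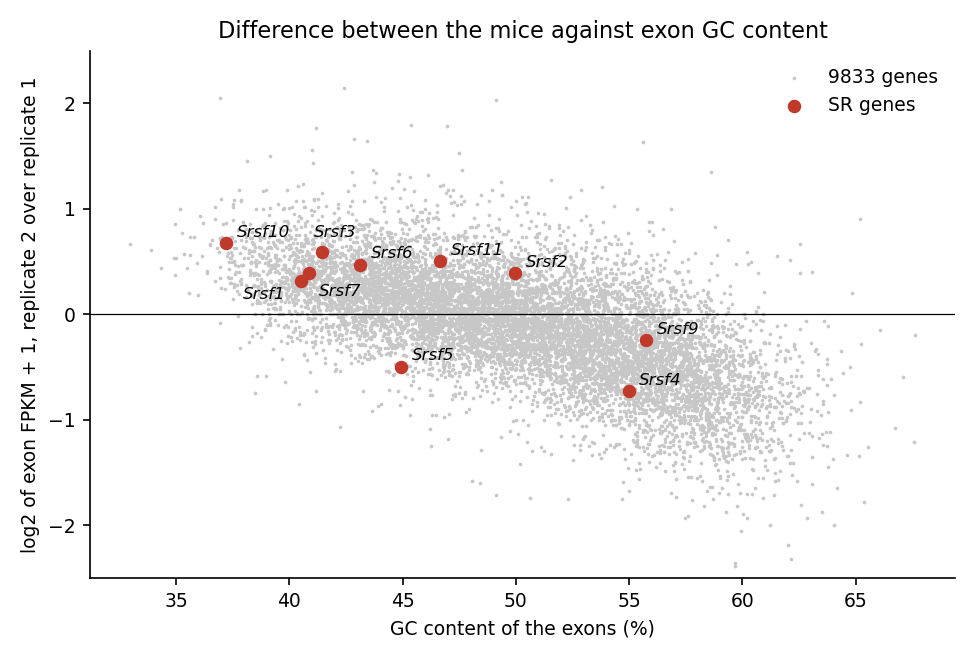
Log2 ratio of exon FPKM + 1 of replicate 2 to replicate 1 against the GC content of the exons, for 9833 genes (gray, 4 genes outside the axis) and the SR genes (red). Genes with high GC content lie lower, and *Srsf5* lies below genes of its GC content with -0.50.

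Other genes of the splicing machinery differed in how far they shared the high ratio. SR-related proteins, which carry an arginine and serine rich domain, had 6 of 16 genes counted by the rule of the 90th percentile, which took 6.79% of all 5423 genes, and had a median percentile of 89.6. *Tra2b*, a splicing activator with a known poison exon, had exon FPKM of 4.6 and 8.0 and intron FPKM of 2.5 and 3.8 and lay at the percentiles 99.6 and 99.5. Of its exon words 64.2% occurred once, so its exon value is uncertain in the same way as those of *Srsf3*, *Srsf5* and *Srsf10*. *Luc7l2*, a component linked to the U1 particle, lay at 97.7 and 97.8, and *Pnn*, the lowest of the list, at 55.1 and 46.7. The median of the 8 SR genes was 96.1 and that of all 5423 genes 49.2.

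The kinases that phosphorylate SR proteins and the importer of the family had 3 of 8 genes counted, with a median of 82.6. *Clk3* lay at 96.0 and 98.1 and *Clk1*, which is known to keep introns in its own transcript, at 95 and 95.7. *Srpk1*, the cytoplasmic SR protein kinase, lay at 48.9 and 43.8. The hnRNP proteins, many of which oppose SR proteins in splice site choice, had 7 of 17 genes counted and a median of 81.4. *Hnrnph1* lay at 97.6 and 98.9 and *Hnrnpa2b1* at 97.1 and 99.1, whereas *Raly* lay at 8.95 and 10.3. Of the exon words of *Hnrnph1* 84.9% occurred once, and of those of *Hnrnpc*, which was also counted, 65.5%, so their exon values are less certain. The hnRNP genes averaging less than 5 exon FPKM were left out. Their ratios ran from 0.161 in *Hnrnpr* in replicate 1 to 1.05 in *Hnrnph3* in replicate 2. *Hnrnpa3*, with 0.909 and 0.944, exceeded *Srsf2* in each mouse. Of 5 genes known for regulated intron retention, with a median of 89.1, 2 were counted, *Clk1* and *Clk4*, which are also among the 3 kinases, and *Nxf1*, the mRNA export receptor, was the lowest with 19.5 and 36.6. *Clk4* lay at 93.4 and 96.2.

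The core spliceosome had 1 of 20 genes counted, *Sf1*, which is a share near the 6.79% of all genes, and a median percentile of 40.2 beside 49.2 for all genes. *Sf1*, the branch point binding protein, lay at 99.3 and 99.7, *Sf3a1* at 83.1 and 72.3 and the helicase gene *Snrnp200* at 8.70 and 18.1. None of the 5 genes of nonsense-mediated decay in this population was counted, which with so few genes is also near the share of all genes, and their median was 65.2. *Upf1*, the central helicase of this pathway, lay at 86.0 and 85.1, *Smg5* at 58.0 and 75.6 and *Upf2* at 37.8 and 50.3. All lists were counted at a minimum of 5 exon FPKM. The lower minimum of 1 was applied only to the SR genes and to all genes. Among SR-related genes under 5 exon FPKM, *U2af1* had ratios of 2.3 and 1.71 and *Rsrc1* of 0.05 in each mouse. Differences between these lists were not tested.

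**Figure D5:**
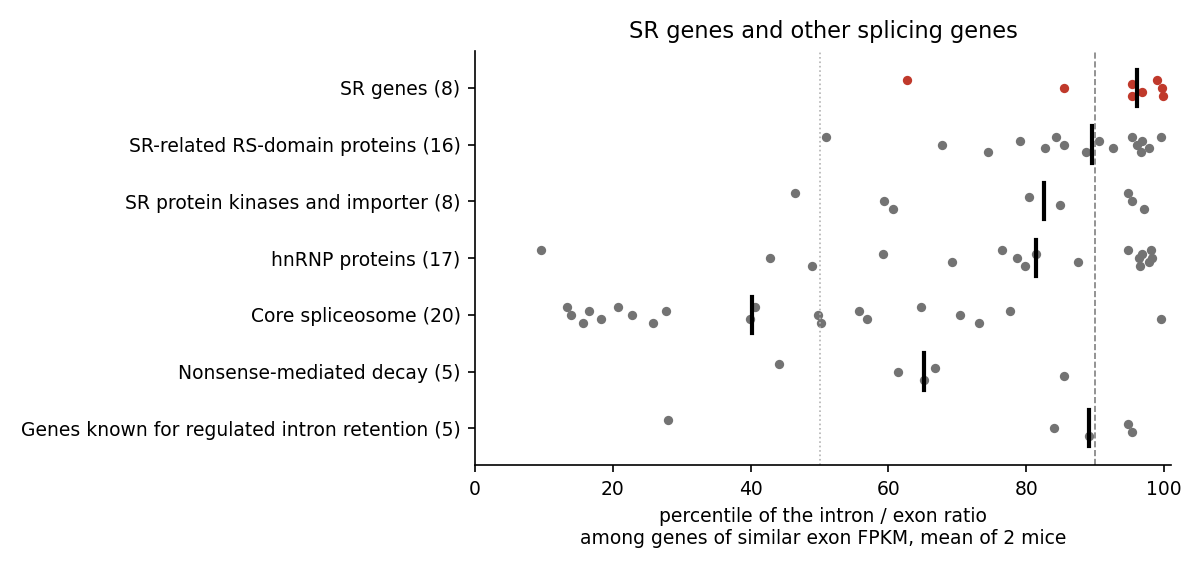
Percentile of the intron to exon ratio among genes of similar exon FPKM, as the mean of 2 mice, for each gene (points) and the median of each list (black bars). The number of genes averaging 5 exon FPKM or more is in parentheses, and the dashed line marks the 90th percentile. The median is 96.1 for the SR genes and 40.2 for the core spliceosome.

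The genes nearest to the median of the members were searched by log2(FPKM + 0.1) of exons and introns in both mice, which gives 4 values from 2 samples. The median of the 8 members corresponded to exon FPKM of 15.3 and 20.3 and intron FPKM of 2.41 and 3.25. No member had such exon levels, since this midpoint lies between the higher and the lower set, so the genes found are near the midpoint and not near single members. They were *Plpp5*, a lipid phosphatase gene, at a distance of 0.35, *Zc3h7a*, which encodes a zinc finger protein, at 0.38 and *Luc7l2* at 0.41. *Plpp5* had exon FPKM of 17.9 and 24.5 and intron FPKM of 2.5 and 3.3. Its ratio of 0.140 and 0.135 lay at the percentiles 94.2 and 95.3. *Zc3h7a* had a ratio of 0.137 and 0.192, and *Luc7l2* of 0.211 and 0.204.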

How the data were processed

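Total RNA of L10 mammary glands from 2 wt/Wap-Tbrg4 mice was sequenced on an Illumina HiSeq after TruSeq Stranded Total RNA preparation. The authors mapped reads to mm10 with STAR, counted them with HTSeq on collapsed exons of UCSC known genes and on the introns between, and calculated FPKM with DESeq2, deposited with 1 decimal. Versions, strand setting, scaling total and treatment of multiply mapped reads are not given in the sources used here. Of the 20550 symbols, 35 were unusable. RefSeq models (GRCm38.p6) matched 99.7% of the others and gave lengths, GC content and introns. Ratios were computed per mouse. Percentiles used genes that had an annotated intron, averaged 5 exon FPKM or more and lay within 2-fold in exon FPKM, with ties counted as 0.5. Log2 differences used FPKM + 1 for exons and FPKM + 0.1 for introns, with a lowess fit (30% of genes) on GC content as an alternative. No test was possible with 1 genotype. From each list, the genes with the 2 highest and the lowest mean percentile were named. The members and lists were chosen with earlier results of these data known. Code used numba 0.67.0, statsmodels 0.14.6, matplotlib 3.10.9, scipy 1.17.1, pandas 2.3.3 and numpy 2.4.6 under Python 3.11.15, and was tested on simulated data. The 12 ChIP-seq samples were not analysed.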

Additional observations from a re-analysis of the deposited data

How the results depend on the processing

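Of 145 values under alternative settings, 42 could not move past the limit by construction: single ratios without 1 of the mice, and intron log2 differences with a pseudocount of 0.1 or centered on a median of 0. Of the other 103, 57 stayed within the limit (1 SD between the mice, 0.1 for log2 differences, 1.5 times for counts), 44 moved by more and 2 changed sign. The changes of sign were those of the exon log2 difference between the mice after the GC correction, for *Srsf1* (-0.0399) and *Srsf9* (0.18), and the cause was not tested. The median ratio of 0.294 was 0.237 after division of exon FPKM by the share of words that occur once, and 0.234 to 0.303 without 1 of the mice. The median percentile of 96.1 was 96.4 with neighbors within 1.5-fold and 96.5 with a fixed number of nearest genes. It was 97.2 when genes averaging 1 exon FPKM or more were used and 93.9 with neighbors also alike in intron length. With neighbors also alike in GC content it was 96.4, and 95.8 without genes marked as sharing their span. It was 96.5 after division by the share of words that occur once and 95.6 among genes with a share of at least 90%, both chosen after seeing the data, and 96.9 to 97.2 without 1 of the mice. Of the single ratios, 9 of 10 moved when computed as relative reads. This setting multiplies each ratio by a fixed quotient of annotated lengths, so it changes the unit and says nothing on robustness. All 10 values are among the 103, and the 9 are among the 44 that moved. No paired analysis was possible because both mice belong to 1 group. Depth limits the intron values of *Srsf1* and *Srsf9*, which rest on 11 to 36 estimated reads, and that of *Srsf6* in replicate 2, with 34.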
